A study of Danio rerio with 6 samples.

Results

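Transcripts of 38 vessel and red blood cell genes were followed in regenerating zebrafish caudal fins. The genes were chosen by name, as 30 genes of blood and lymphatic vessels with their ligands and 8 genes of red blood cells, and all 38 names were found among the 31901 rows of the deposited count table. The name hbba1 stood on 2 rows, which gave 39 rows in all, and 36 of them had enough reads to be tested. The fish carried shha:GFP, a reporter that marks cells expressing a Hedgehog ligand, and both groups carried it. At 4 days after amputation they were injected into the body cavity with buffer (vehicle: PEG-400, propylene glycol and Tween-80) or with 40 mg/kg of BMS-833923, an inhibitor of the Hedgehog signal transducer Smoothened, in that buffer (BMS). Regenerates were collected 5 hours later and cut so that only the shha:GFP domains and the tissue beyond them were kept. There were 3 libraries per group, numbered 2, 3 and 4, and each pooled 4 regenerates. The sources used here do not state the age of the fish or how the reporter was built. The last digit of the compound number differs in the labels of BMS replicates 3 and 4, and all 3 BMS libraries were treated as 1 group because the design text names a single compound. The labels speak of pools, so each p-value sets a group difference against the spread between pools of this experiment. Where the replicate number was a block, that spread is what remains after differences between numbers are removed.

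Blood vessels are lined by endothelial cells, which respond to Vegf ligands through receptor tyrosine kinases, to angiopoietins through the Tie receptors and to apelin through G protein-coupled receptors. Ets and SoxF transcription factors set the endothelial gene programme, and prox1a marks lymphatic endothelium among other cells. In zebrafish embryos, Hedgehog signalling acts upstream of vegfaa when arteries form, and vessels regrow into the fin as it regenerates. The red cells of fish are nucleated and hold globin messenger RNA, so blood kept in a tissue sample adds globin reads to the library.

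Total counts ran from 16978747 to 22659275 per library, and a count of 0 allowed a level of up to 0.132 to 0.177 CPM (CPM are read counts scaled to a common library size; 3 counts, counting error only). All other levels below are CPM of the library size scaled by TMM, a correction for library composition. As a check of the treatment, the direct Hedgehog targets ptch1, gli1 and hhip each had lower BMS values in every same-number pair, and DESeq2 with the replicate number as a block called gli1 and hhip. Of 36 member rows, 0 passed edgeR's quasi-likelihood test with Benjamini-Hochberg adjustment over 18541 rows and a threshold of 0.05 (adjusted p = 1 for each), and 0.0% of all rows passed it. An unadjusted p under 0.05 was reached by 0 of the 36, beside 0.405% of all rows as lower and 0.663% as higher in BMS. With the replicate number as a block, edgeR's quasi-likelihood test called 0 of the 36, and DESeq2 called 0 of the 31 to which it gave an adjusted p, beside 0.388% of all rows (0.113% lower and 0.275% higher). Of the 36, 0 had vehicle and BMS values that did not overlap, where 1.75% of all rows tested were lower without overlap and 2.16% higher. The differences described below are therefore values and not called changes.

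Among the vessel ligands, apln had lower BMS values by a like proportion in every pair. It encodes apelin, a secreted peptide that endothelial tip cells make and that binds the receptors encoded by aplnra and aplnrb. Its level was 37.1, 40.1 and 26.7 CPM in vehicle replicates 2, 3 and 4 and 24.1, 27.3 and 17.8 CPM in BMS replicates 2, 3 and 4. Each BMS library lay below the vehicle library of its number, while BMS replicate 3 lay just above vehicle replicate 4, so the groups overlapped. Over libraries, the vehicle mean was 34.6 ± 7.0 CPM (SD, n = 3) and the BMS mean 23.1 ± 4.82 CPM (SD, n = 3). The log2 ratio of BMS over vehicle was -0.62, -0.55 and -0.59 in pairs 2, 3 and 4. In edgeR's quasi-likelihood fit with the replicate block the log2 fold change of apln was -0.59 (95% interval -0.94 to -0.23), with an unadjusted p of 0.0048 and an adjusted p of 0.56. DESeq2 with the block gave -0.59 ± 0.21 (SE) and an adjusted p of 0.339. Without the block the edgeR estimate was -0.59 ± 0.29 (SE). The summed level of 11 osteoblast markers, led by the collagen genes col1a1a, col10a1a and col1a2, also was lower in BMS in each pair. It was 34991, 26448 and 13039 CPM in vehicle and 32262, 19062 and 8855 CPM in BMS, with 0 of the 11 at 0 in every library. This sum is set mostly by col1a1a. Of the 10 tested, 10 had negative log2 fold changes without the block, but only 4 were lower in BMS in all 3 pairs. For col10a1a, BMS replicate 2 (5324 CPM) lay above vehicle replicate 2 (4194 CPM). The part of the osteoblast markers in the apln difference was not tested. RefSeq's gene table, which is of another assembly, has apln overlapping xpnpep2, and the strand setting of the counting is not given, so reads from these 2 genes may not have been told apart. Of the 34 members matched in that table, 19 overlap another gene, many of them only a locus without a gene name. The annotation used for counting is not given and may lack such loci. The limit is not particular to apln, since clec14a, erg and angpt2a also overlap a named gene.

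The apelin receptor genes were measured at low levels. For aplnrb the values were 6.73, 3.21 and 2.14 CPM in vehicle replicates 2, 3 and 4 and 3.63, 2.38 and 1.62 CPM in BMS replicates 2, 3 and 4. Every pair had the lower value in BMS, with log2 ratios of -0.89, -0.43 and -0.41, and vehicle replicate 2 stood above the other libraries. Its log2 fold change with the block (the blocked value) was -0.58 (95% interval -1.15 to -0.019), with an edgeR unadjusted p of 0.0442 and an adjusted p of 0.687. Without vehicle replicate 2, which leaves pair 2 incomplete, the estimate without the block went from -0.68 to -0.10. For aplnra the levels were 4.64, 3.0 and 3.49 CPM in vehicle and 4.92, 2.66 and 2.42 CPM in BMS, and the log2 ratios within pairs were 0.086, -0.17 and -0.53, of both signs. These genes, apln and aplnrb, were the only 2 of the 27 vessel members tested with an unadjusted p under 0.05 in the blocked edgeR fit. Across all rows that share was 7.05%, made up of 3.96% for lower and 3.09% for higher rows. In the blocked DESeq2 fit, apln was the only 1 of the 27 at an unadjusted p under 0.05, where 5.26% of all rows were (2.92% lower and 2.34% higher).

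**Figure D1:**
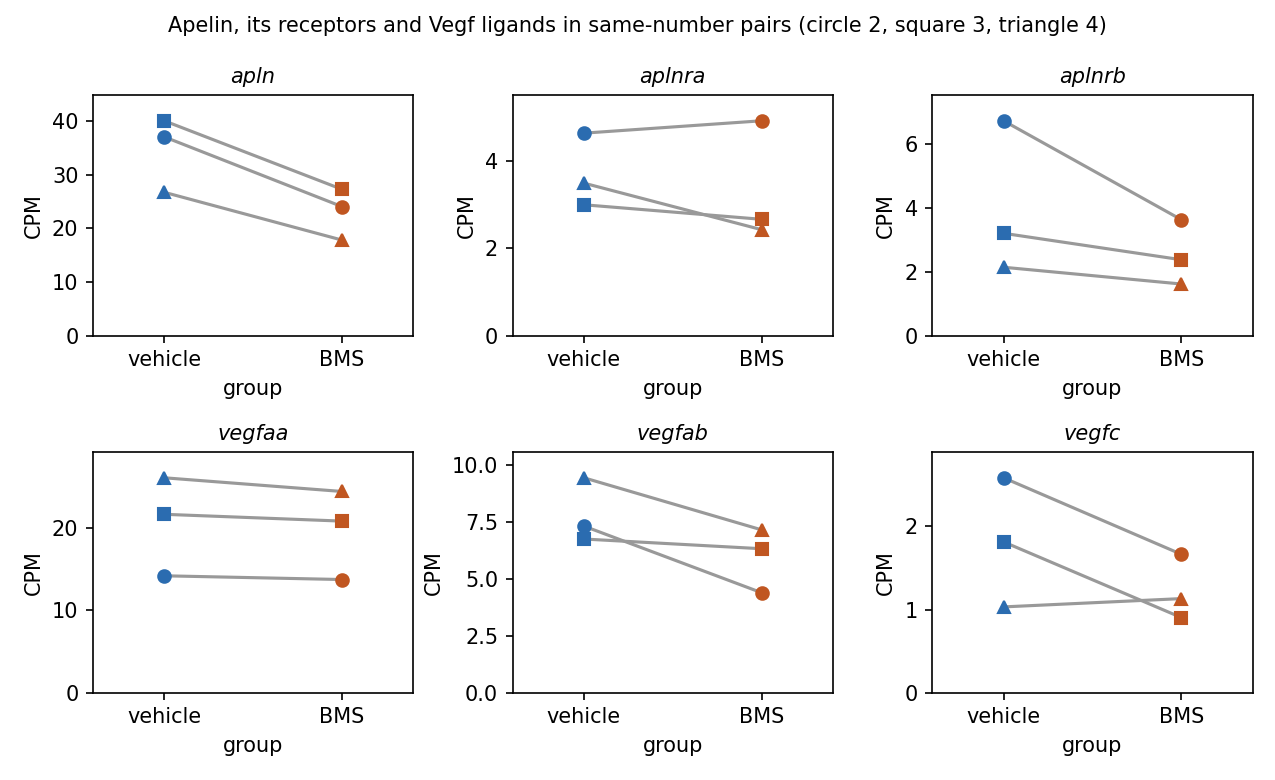
Level (CPM, axes from 0) of apln, its receptor genes aplnra and aplnrb, and the Vegf ligand genes vegfaa, vegfab and vegfc in vehicle and BMS libraries. Lines join libraries of the same number (circle 2, square 3, triangle 4), and for apln all 3 lines fall by a like proportion, while the vegfaa lines are nearly level.

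The Vegf ligands act on endothelial cells from neighbouring tissue. The level of vegfaa, the main Vegfa gene, was 14.2, 21.6 and 26 CPM in vehicle replicates 2, 3 and 4 and 13.7, 20.8 and 24.4 CPM in BMS replicates 2, 3 and 4. The libraries of number 2 were lowest and those of number 4 highest in both groups, and the ratio within pairs was close to 0 on the log2 scale (-0.047, -0.056 and -0.10). With the block, its log2 fold change was -0.067 (95% interval -0.44 to 0.31). Its paralogue vegfab was at 7.32, 6.75 and 9.44 CPM in vehicle and 4.39, 6.32 and 7.15 CPM in BMS and had the lower value in BMS in every pair, with a blocked log2 fold change of -0.40 (95% interval -0.88 to 0.082). The lymphangiogenic ligand gene vegfc was at 2.59, 1.81 and 1.03 CPM in vehicle and 1.67, 0.903 and 1.13 CPM in BMS, lower in pairs 2 and 3 and higher in pair 4, with -0.50 (95% interval -1.27 to 0.26).

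The angiopoietins bind the receptor encoded by tek. Of their genes, angpt1 had counts of 3, 5 and 0 in vehicle and 2, 4 and 0 in BMS and was not tested. The level of angpt2a was 3.42, 4.56 and 4.96 CPM in vehicle and 6.89, 4.99 and 4.85 CPM in BMS, and BMS replicate 2 was the highest of the 6 libraries. The level of angpt2b was 8.98, 8.06 and 4.96 CPM in vehicle and 7.72, 5.23 and 5.33 CPM in BMS, with pair ratios of -0.22, -0.62 and 0.11. The endothelial secreted protein gene egfl7 was at 8.2, 5.82 and 5.79 CPM in vehicle and 14.6, 5.66 and 8.33 CPM in BMS. Its value in BMS replicate 2 stood above the other libraries. Without that library its log2 fold change in the fit without the block went from 0.52 to 0.11. Of the 7 ligand genes tested, 5 had negative and 2 positive log2 fold changes without the block, and their median was -0.27 against 0.011 over all rows tested.

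Among the receptors, kdrl, a zebrafish Vegf receptor gene of endothelial cells, was at 22.9, 18.7 and 13 CPM in vehicle replicates 2, 3 and 4 and 14.4, 17 and 10.3 CPM in BMS replicates 2, 3 and 4. It was lower in BMS in each pair (-0.67, -0.14 and -0.33), and the groups overlapped. With the block its log2 fold change was -0.38 (95% interval -0.80 to 0.043) and its edgeR adjusted p was 0.689. The other Vegfa receptor gene kdr was at 10.8, 12.2 and 6.9 CPM in vehicle and 5.83, 12.1 and 7.23 CPM in BMS, and its difference lay in pair 2 (-0.89, -0.0089 and 0.067). The decoy receptor gene flt1 had counts of 3, 8 and 6 in vehicle and 1, 7 and 3 in BMS and was not tested. The Vegfc receptor gene flt4 was at 13.9, 9.62 and 5.63 CPM in vehicle and 18.2, 6.51 and 6.34 CPM in BMS, with signs that differed between pairs.

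The angiopoietin receptor gene tek went the other way from kdrl. Its level was 2.24, 2.41 and 1.63 CPM in vehicle replicates 2, 3 and 4 and 4.47, 3.28 and 2.06 CPM in BMS replicates 2, 3 and 4, with the higher value in BMS in every pair (0.99, 0.45 and 0.34), and BMS replicate 4 inside the vehicle range. The blocked log2 fold change was 0.59 (95% interval -0.0077 to 1.19), with an edgeR adjusted p of 0.687. Without BMS replicate 2 the estimate without the block went from 0.63 to 0.35. Its partner tie1 varied least over the 6 libraries of the vessel members tested, from 12.6 to 16.8 CPM, a ratio of 1.33. Its blocked log2 fold change was 0.11 (95% interval -0.30 to 0.51). The scavenger receptor gene stab2, expressed in venous and lymphatic endothelium, was the other vessel member with higher BMS values in every pair (0.38, 0.38 and 0.25). Its levels were 11.4, 7.47 and 4.6 CPM in vehicle and 14.8, 9.7 and 5.46 CPM in BMS, so the groups overlapped widely. Its relative stab1 was at 16.7, 13.8 and 8.89 CPM in vehicle and 12.9, 12.3 and 9.38 CPM in BMS, with pair ratios of -0.38, -0.17 and 0.077.

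The junction genes were split. The level of pecam1, an adhesion molecule of endothelial and some blood cells, was 16.2, 12.8 and 12.4 CPM in vehicle and 32.2, 12 and 16.9 CPM in BMS, with the highest value in BMS replicate 2 and a pair 3 ratio of -0.10. Without BMS replicate 2 its log2 fold change in the fit without the block went from 0.56 to 0.088. The endothelial cadherin gene cdh5 was low, at 0.683, 1.18 and 1.15 CPM in vehicle and 0.303, 1.19 and 0.727 CPM in BMS, and its lowest value was in the same library. The junction gene esama was at 5.32, 5.49 and 3.97 CPM in vehicle and 5.07, 6.09 and 3.15 CPM in BMS, with pair ratios on both sides of 0. The endothelial lectin gene clec14a was at 10.2, 8.65 and 10.7 CPM in vehicle and 16.2, 7.27 and 11.9 CPM in BMS, again highest in BMS replicate 2. The lymphatic marker gene lyve1b was nearly absent, with counts of 0, 1 and 0 in vehicle and 0, 0 and 2 in BMS. Of the 13 receptor and junction genes tested, 7 had negative and 6 positive log2 fold changes, with a median of -0.049.

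The endothelial transcription factor genes had mostly negative values. Of 7, 6 were negative in the fit without the block, with a median of -0.18, and the range of that median with 1 library left out was -0.46 (without vehicle replicate 4) to -0.038 (without vehicle replicate 3). The Ets factor gene fli1a was at 24.7, 18 and 11.7 CPM in vehicle replicates 2, 3 and 4 and 19.5, 15.5 and 11.3 CPM in BMS replicates 2, 3 and 4. Within pairs its log2 ratio was -0.34, -0.21 and -0.059, and in both groups replicate 2 was the highest and replicate 4 the lowest library. Its paralogue fli1b was at 8.59, 8.23 and 5.59 CPM in vehicle and 7.64, 5.52 and 4.36 CPM in BMS and the Ets factor gene erg at 2.39, 2.03 and 1.55 CPM in vehicle and 1.67, 1.47 and 1.45 CPM in BMS. Within pairs fli1b had log2 ratios of -0.17, -0.58 and -0.36 and erg of -0.52, -0.46 and -0.089, all lower in BMS. The blocked log2 fold changes were -0.37 (95% interval -0.83 to 0.090) for fli1b and -0.35 (95% interval -1.0 to 0.30) for erg. The early Ets factor gene etv2, known from vessel and blood progenitors, was at 6.2, 4.98 and 4.56 CPM in vehicle and 8.93, 3.9 and 4.93 CPM in BMS. The SoxF gene sox7 was at 4.88, 4.85 and 2.82 CPM in vehicle and 6.13, 2.85 and 2.38 CPM in BMS, and sox18 at 4.59, 5.23 and 1.75 CPM in vehicle and 5.15, 3.57 and 2.14 CPM in BMS. They had pair ratios of 0.33, -0.77 and -0.24 and of 0.17, -0.55 and 0.29, with both signs in each. The lymphatic regulator gene prox1a was at 5.71, 8.9 and 6.9 CPM in vehicle and 4.54, 8.04 and 6.39 CPM in BMS and was lower in each pair (-0.33, -0.15 and -0.11).

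**Figure D2:**
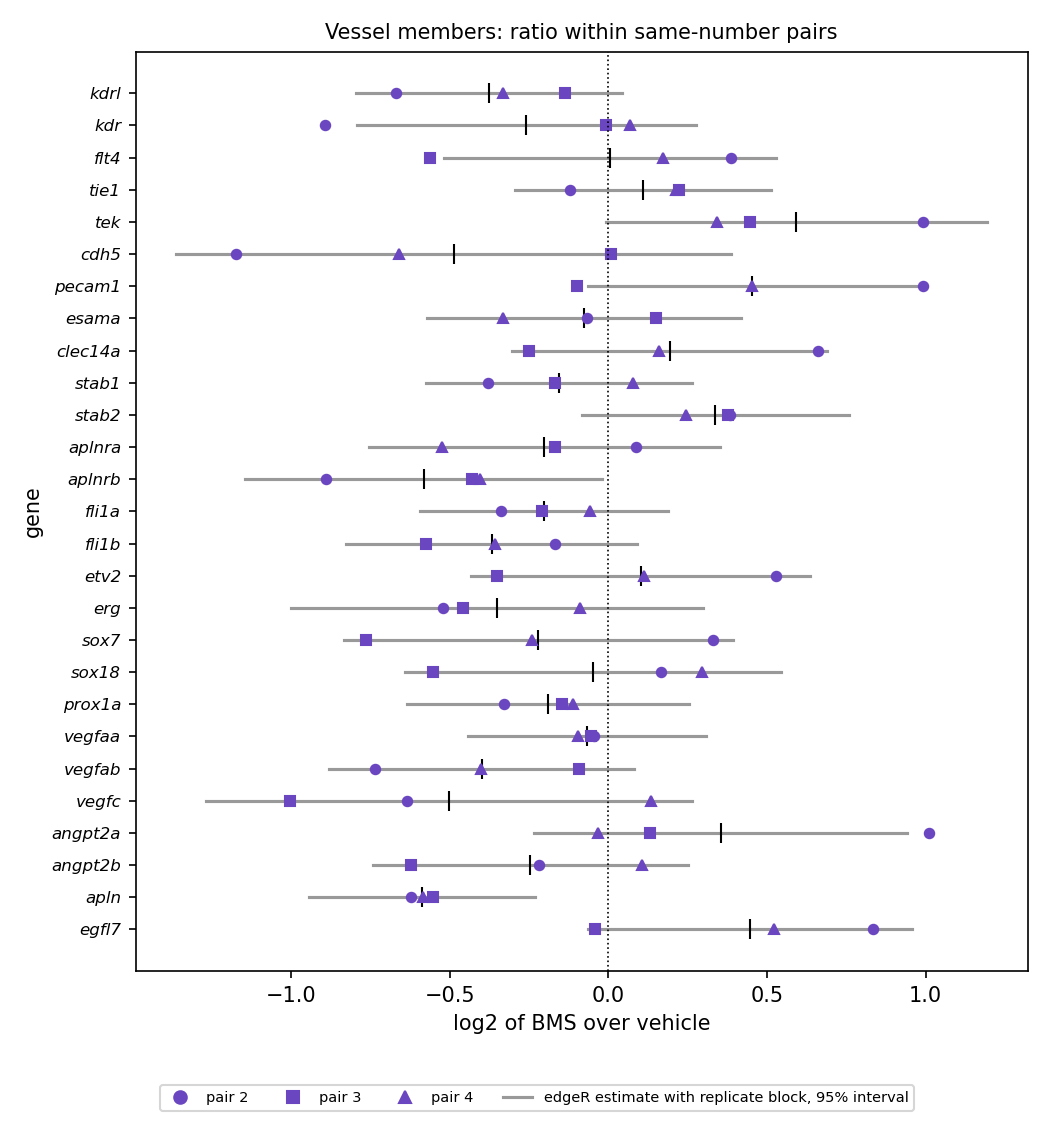
Log2 ratio of BMS over vehicle (x axis) for the 27 vessel members tested (y axis), as points for same-number pairs 2, 3 and 4, with the edgeR estimate from the fit with the replicate block (black tick) and its 95% interval (grey line). The intervals of apln and aplnrb lie below 0, unadjusted for the number of rows tested, and those of the other 25 include 0.

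Counted over pairs, 9 of the 27 vessel members tested (kdrl, aplnrb, fli1a, fli1b, erg, prox1a, vegfaa, vegfab and apln) were lower in BMS in all 3, where 17.5% of all rows were. Only tek and stab2, 2 of 27, were higher in all 3, where 14.1% of all rows were. A negative log2 fold change without the block was found in 18 of 27, where 48.5% of all rows had one. The median of the 27 was -0.17 without the block and -0.19 with it, against 0.011 and -0.018 over all rows. With 1 library left out the median without the block ranged from -0.24 (without vehicle replicate 4) to -3.0e-05 (without vehicle replicate 2). The summed level of the 30 vessel genes was 275, 254 and 203 CPM in vehicle and 272, 222 and 196 CPM in BMS. As a share of the total count, without TMM, they took 0.0262%, 0.0270% and 0.0226% in vehicle. In BMS that share was 0.0212%, 0.0230% and 0.0214%. By share BMS replicate 2 was the lowest library, whereas its scaled sum was close to that of vehicle replicate 2. The size of the pair 2 difference in the sum therefore depends on the scaling. In bulk tissue, fewer cells of a type and less of its RNA per cell cannot be told apart.

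The order of the libraries by replicate number recurred in many vessel members. In 13 of 27 the library of number 4 was the lowest in both groups, a pattern held by 24.7% of all rows tested. In 14 of 27 the library of number 2 was the highest in both groups, held by 23.6% of all rows. The summed levels of bone and mesenchyme markers had a like order, as did the abundant genes and1 and col1a1a. Single markers did not all share it. The osteoblast factor gene sp7 and the mesenchyme gene msx2b, named here after their values were seen, are examples. In vehicle, sp7 was at 42.6, 56.3 and 39.6 CPM and msx2b at 141, 196 and 304 CPM. In BMS they were at 18.2, 50.5 and 29.3 CPM and at 176, 147 and 170 CPM. The summed level of 13 fin mesenchyme markers, led by the actinotrichia genes and1 and and2 and the matrix gene tnc, was 11248, 8702 and 4188 CPM in vehicle and 11976, 6169 and 3257 CPM in BMS replicates 2, 3 and 4, and that of the osteoblast markers is given above. The part of these markers in the vessel values was not tested. BMS replicate 2 had the lowest TMM factor, 0.779, and the next lowest was 0.954 in vehicle replicate 2. The ranks of BMS replicate 2 here and above therefore depend on that scaling. In BMS replicate 2, 10 of 27 vessel members had their highest value of the 6 libraries and 6 their lowest. Across all rows these shares were 32.5% and 29.4%, so such extremes were not particular to the vessel members. In BMS replicate 2 the summed level of 13 superficial and intermediate epidermis markers, led by the keratin genes krt5, krt91 and krt4, was 54755 CPM. It was 32309 to 38276 CPM in vehicle and 32793 and 33491 CPM in the other BMS libraries, with 0 of the 13 at 0 in every library. Its part in the vessel values was not tested.

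**Figure D3:**
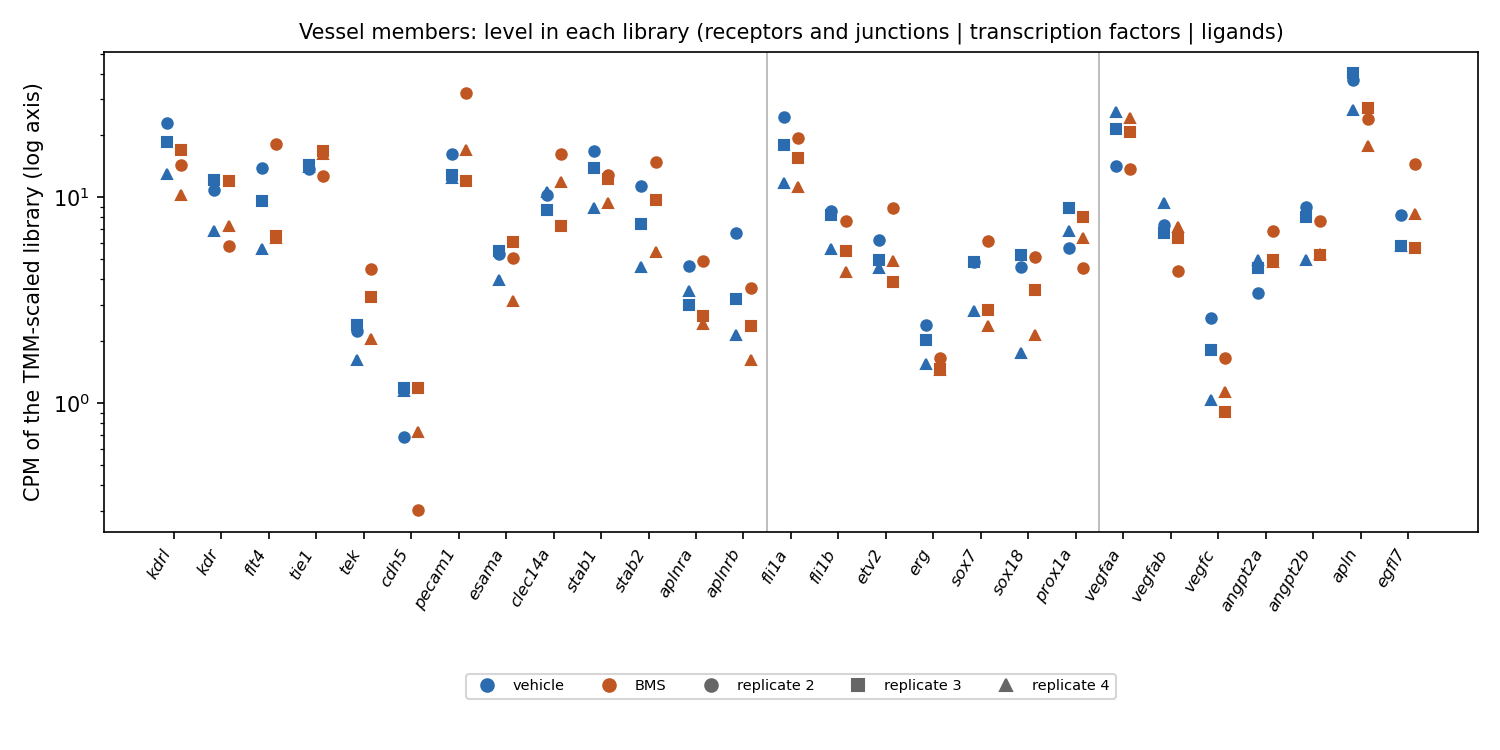
Level (CPM, log axis) of the 27 vessel members tested in each vehicle (blue) and BMS (orange) library, with the marker shape for the replicate number and grey lines between receptors and junctions, transcription factors, and ligands. Vehicle and BMS points overlap for every gene plotted, and triangles (number 4) are often the lowest in both groups.

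Other endothelial genes, from a list of 39, gave 35 tested, with 23 negative and 12 positive log2 fold changes, whose median was -0.069. None of these passed edgeR's quasi-likelihood test with or without the block, or DESeq2 with the block, and 0 had an unadjusted p under 0.05 without the block. With the block, 3 of 35 reached it as lower and 2 as higher, where 3.96% and 3.09% of all rows did. The rule of the 3 highest mean levels named the flow-responsive factor gene klf2a, its paralogue klf2b and the netrin receptor gene unc5b, which other cells express too. The level of klf2a was 1238, 543 and 116 CPM in vehicle and 1316, 971 and 507 CPM in BMS, higher in BMS in each pair, and its vehicle values were spread as widely as those of the red cell genes described below. Its blocked log2 fold change was 1.01 ± 0.35 (SE), with an edgeR adjusted p of 0.661. The levels of klf2b were 119, 318 and 86.4 CPM in vehicle and 87.3, 239.8 and 239.6 CPM in BMS, and those of unc5b were 142, 219.9 and 155 CPM in vehicle and 60.2, 323 and 106 CPM in BMS.

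The list of lymphatic and venous genes held 13 names, of which 10 were tested, and 9 were negative, with a median of -0.32 (range -0.51 to -0.20 with 1 library left out). Of the 10, 3 were lower in BMS without overlap, where 1.75% of all rows were, and 0 passed an adjusted threshold. An unadjusted p under 0.05 was reached by 2 of 10 without the block. With the block it was reached, all as lower, by 5 of 10 in edgeR and 4 of 10 in DESeq2, where 3.96% and 2.92% of all rows were. The 3 genes without overlap were nr2f2, a venous identity factor gene, tbx1 and osr2, both transcription factor genes of lymphatic and of other tissues, and nr2f2 and osr2 are named here after their values were seen. The level of nr2f2 was 2.15, 3.71 and 3.13 CPM in vehicle and 1.29, 2.09 and 1.58 CPM in BMS, and that of tbx1 was 35.3, 48.8 and 43.2 CPM in vehicle and 28.5, 34.9 and 26.6 CPM in BMS. For osr2 the levels were 0.586, 0.633 and 0.516 CPM in vehicle and 0.303, 0.333 and 0.162 CPM in BMS. The blocked log2 fold changes were -0.86 ± 0.26 (SE), -0.50 ± 0.16 and -1.15 ± 0.48, with edgeR adjusted p-values of 0.629, 0.629 and 0.687. The protease gene adamts3, whose product processes Vegfc, was at 40.1, 57.7 and 33.4 CPM in vehicle and 21.9, 47.9 and 24.2 CPM in BMS, and the cadherin gene cdh6 at 45.3, 34 and 23.6 CPM in vehicle and 42.1, 28.7 and 21.1 CPM in BMS. The remaining genes tested had log2 fold changes without the block of -0.0097 (mrc1a), -0.030 (vegfd), -0.14 (prox1b), -0.57 (adamts14) and 0.22 (ccbe1). Bulk counts do not show which cells the transcripts of this list came from, and this was not tested. The lymphatic endothelial gene lyve1a, named here after its values were seen, did not pass the filter on low counts and was not tested, at 0.244, 0.338 and 0.159 CPM in vehicle and 1.97, 0.38 and 1.13 CPM in BMS.

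Of 29 named partners of the Vegf, angiopoietin and apelin pathways, 23 were tested. There were 11 negative and 12 positive values, a median of 0.077 and 0 calls in any of the 3 fits, and 0 had an unadjusted p under 0.05 without the block. In the blocked edgeR fit 1 of 23 reached it as lower and 2 as higher, where 3.96% and 3.09% of all rows did. The hypoxia factor gene hif1ab was at 322, 289 and 145 CPM in vehicle and 265, 279.6 and 129 CPM in BMS, and the Vegf co-receptor gene nrp2b at 145, 129 and 64.8 CPM in vehicle and 166, 102 and 45.5 CPM in BMS. The angiopoietin-like gene angptl7 was at 195, 157 and 184 CPM in vehicle and 277, 221 and 256 CPM in BMS, so every BMS library lay above every vehicle library. Its blocked log2 fold change was 0.49 ± 0.16 (SE), with adjusted p-values of 0.629 by edgeR and 0.41 by DESeq2, both with the block. It and vegfba, which was low at 0.432 CPM on average in vehicle, were the 2 of 23 that were higher without overlap, where 2.16% of all rows were, and vegfba is named here after its values were seen.

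The cells that wrap vessels, pericytes and smooth muscle, were followed by 15 markers, of which 10 were tested and 0 called. The marker genes notch3 and pdgfrb were at 237, 309 and 182 CPM in vehicle and 116, 285 and 130.2 CPM in BMS and at 57.8, 56.4 and 25.4 CPM in vehicle and 33.1, 47.1 and 20.4 CPM in BMS, lower in BMS in each pair. They are also expressed by other mesenchymal cells of the fin. The pericyte gene rgs5a was at 19.6, 21.6 and 23.8 CPM in vehicle and 14.6, 25.9 and 32.5 CPM in BMS. The smooth muscle gene tagln and the pericyte gene rgs5b, named here after their values were seen, were the 2 of 10 that were higher in BMS without overlap, where 2.16% of all rows were, and the only ones of the 10 at an unadjusted p under 0.05 without the block. The level of tagln was 15.9, 12.5 and 14.8 CPM in vehicle and 44.7, 19 and 17.7 CPM in BMS, highest in BMS replicate 2, and that of rgs5b was 6.3, 5.99 and 4.25 CPM in vehicle and 12, 6.47 and 10.6 CPM in BMS. Their edgeR log2 fold changes without the block were 0.91 ± 0.38 (SE) and 0.81 ± 0.33, with unadjusted p-values of 0.0387 and 0.034 and adjusted p-values of 1 for both. The smooth muscle gene myh11a, also named after its values were seen, went the other way on average, at -0.28 ± 0.35 (SE). It was at 12.4, 13.3 and 8.89 CPM in vehicle and 6.96, 14.1 and 7.36 CPM in BMS. The list's acta2, cnn1b and desma were not tested. With the block, an unadjusted p under 0.05 was reached by 3 of 10 as lower and 2 as higher, in edgeR and in DESeq2. Across all rows those shares were 3.96% and 3.09% in edgeR and 2.92% and 2.34% in DESeq2. The 3 lower genes were notch3, pdgfrb and cspg4, the last named here after its values were seen. The summed level of the 15 was 295 to 478 CPM in vehicle and 251 to 455 CPM in BMS, and 6 of 10 had negative values.

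The red cell genes were spread most widely within the vehicle group. The adult alpha globin gene hbaa1 was at 146, 70.4 and 9.6 CPM in vehicle replicates 2, 3 and 4 and 39.6, 55.9 and 32.1 CPM in BMS replicates 2, 3 and 4. The vehicle libraries held both the highest and the lowest values, and the BMS libraries lay between them. Over libraries, the vehicle mean was 75.3 ± 68.3 CPM (SD, n = 3) and the BMS mean 42.5 ± 12.2 CPM (SD, n = 3), while the log2 ratio within pairs was -1.88, -0.33 and 1.74. The edgeR log2 fold change was -0.82 ± 0.71 (SE) without the block and -0.20 (95% interval -2.16 to 1.75) with it, with adjusted p-values of 1 and 0.943. The adult beta globin gene hbba1 was at 38.4, 53 and 6.86 CPM in vehicle and 19.6, 13.4 and 16.4 CPM in BMS on its higher row and at 29.3, 26 and 3.33 CPM in vehicle and 11.7, 11.1 and 11.3 CPM in BMS on its other row. On both rows vehicle replicate 4 was the lowest of the 6 libraries and the BMS libraries lay close to each other. The second alpha and beta genes were low. The level of hbaa2 was 1.56, 3.0 and 0.119 CPM in vehicle and 2.19, 1.19 and 0.849 CPM in BMS, where vehicle replicate 4 had a count of 3, and that of hbba2 was 4.59, 4.47 and 0.436 CPM in vehicle and 3.48, 2.42 and 1.54 CPM in BMS. In RefSeq's table hbaa2, hbba2, hbaa1 and hbba1 lie in 1 cluster and hbaa2 overlaps hbba2. The globin genes are close copies of each other and the counting of shared reads is not stated, so the split of reads among the 5 globin rows is uncertain and their sum is given beside them.

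The 5 globin rows summed to 219.8, 157 and 20.4 CPM in vehicle and 76.6, 84 and 62.1 CPM in BMS. Vehicle replicate 4 therefore held less globin RNA than any BMS library, and vehicle replicates 2 and 3 held more. As a share of the total count, all 9 red cell rows took 0.0239%, 0.0186% and 0.00278% in vehicle and 0.00646%, 0.0105% and 0.00759% in BMS. The ratio of alpha to beta globin reads was 2.04, 0.879 and 0.914 in vehicle and 1.2, 2.12 and 1.13 in BMS. It was near or above 2 in vehicle replicate 2 and BMS replicate 3 and lower in the other libraries, so alpha and beta reads did not keep a constant proportion.

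**Figure D4:**
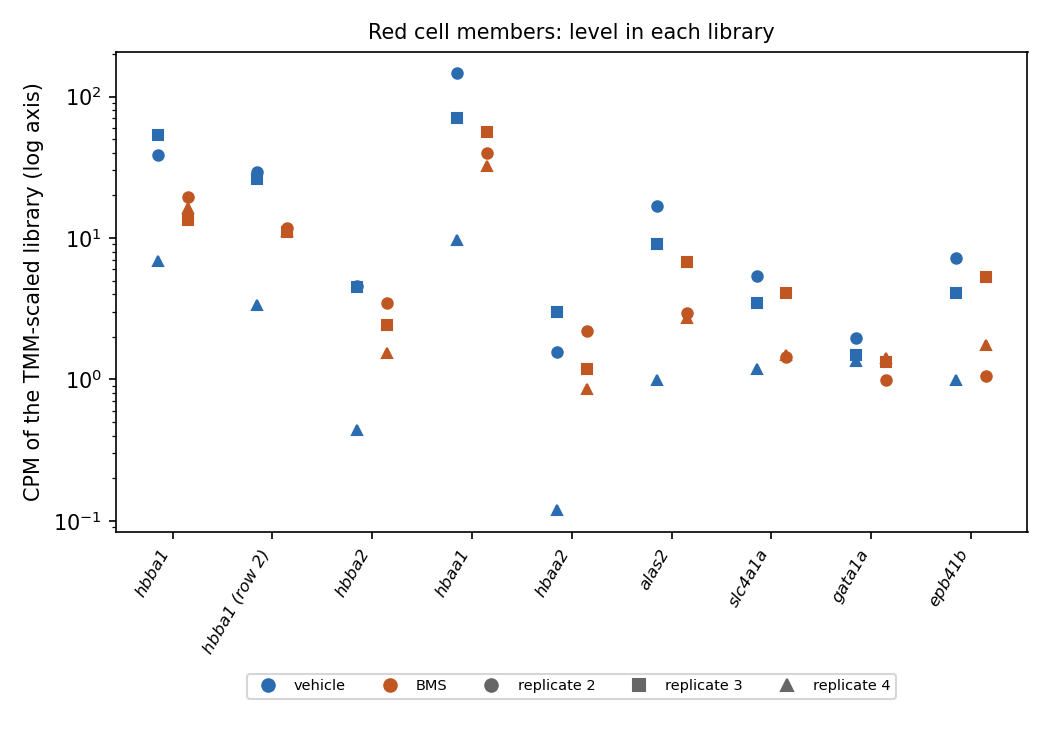
Level (CPM, log axis) of the 9 red cell rows in each vehicle (blue) and BMS (orange) library, with the marker shape for the replicate number; the second row named hbba1 stands beside the first. The blue triangle (vehicle replicate 4) is the lowest point for every row but gata1a.

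The other red cell members encode the haem enzyme Alas2, the anion exchanger Slc4a1a, the erythroid transcription factor Gata1a and the membrane skeleton protein Epb41b. The level of alas2, the erythroid first enzyme of haem synthesis, was 16.8, 8.99 and 0.992 CPM in vehicle replicates 2, 3 and 4 and 2.95, 6.7 and 2.71 CPM in BMS replicates 2, 3 and 4. Its pair ratios were -2.51, -0.42 and 1.45, of both signs, and its blocked log2 fold change was -0.60 (95% interval -2.33 to 1.14). The membrane genes slc4a1a and epb41b were at 5.37, 3.46 and 1.19 CPM in vehicle and 1.44, 4.09 and 1.5 CPM in BMS and at 7.17, 4.09 and 0.992 CPM in vehicle and 1.06, 5.28 and 1.74 CPM in BMS. For these genes BMS replicate 2 was as low as the number 4 libraries, whereas its globin sum was close to that of BMS replicate 3. The sum of the globin rows over that of alas2, slc4a1a, gata1a and epb41b was 7.02, 8.71 and 4.5 in vehicle and 11.9, 4.83 and 8.45 in BMS. The gene gata1a varied far less, at 1.95, 1.48 and 1.35 CPM in vehicle and 0.984, 1.33 and 1.41 CPM in BMS. Its highest value was 1.98 times its lowest, against 17 for alas2 and 15.2 for hbaa1.

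All 9 red cell rows had negative log2 fold changes without the block, with a median of -0.58 (-0.38 with the block), but 0 of 9 were lower in BMS in all 3 pairs. Of the 9, 6 were lower in pairs 2 and 3 and higher in pair 4, a pattern held by 6.2% of all rows. In 8 of 9, the highest vehicle value was at least 4 times the lowest, where 2.63% of all rows were. In the BMS group this held for 1 of 9, epb41b, where 7.92% of all rows did. Vehicle replicate 4 was the lowest of the 6 libraries in 8 of 9, where 10.2% of all rows were. The median of the 9 rows was -1.05 without vehicle replicate 4 and -0.17 without vehicle replicate 2. Among the vessel members, 0 of 27 had a 4-fold range in either group.

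**Figure D5:**
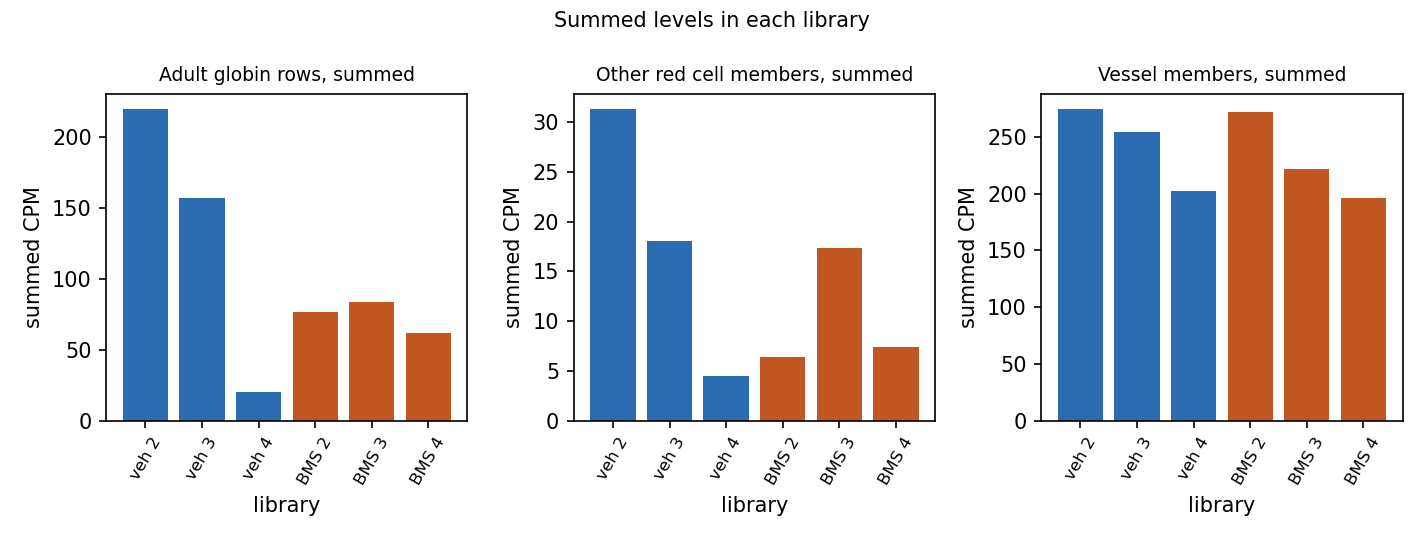
Summed level (CPM, axes from 0) in each library of the 5 adult globin rows, the 4 other red cell members and the 30 vessel members, with vehicle in blue and BMS in orange. The globin sum of vehicle replicate 4 is the lowest of the 6 libraries and that of vehicle replicate 2 the highest, while the vessel sum varies much less.

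A list of 42 other red cell genes gave 30 tested, of which 22 were negative and 8 positive, with a median of -0.14 and 0 calls in any of the 3 fits. Of these, 0 reached an unadjusted p under 0.05 without the block. Of the list's embryonic globin genes, hbbe1.1, hbbe1.2, hbbe3 and hbae1.3 had no read in any library. The highest values of hbae5, hbbe2 and hbae3 were 0.227, 0.244 and 0.0475 CPM, and these genes were not tested. The genes with the highest levels were the transferrin receptor gene tfr1b and the haem enzyme genes cpox and alad, which other cells use too. Their levels were 44.8, 59.1 and 71 CPM in vehicle and 30.4, 62.1 and 67.4 CPM in BMS for tfr1b, 22.7, 21.7 and 16 CPM in vehicle and 35.4, 17.1 and 15.9 CPM in BMS for cpox and 15.9, 13.2 and 21 CPM in vehicle and 20.1, 14.3 and 21.7 CPM in BMS for alad. Vehicle replicate 4 was the highest vehicle library for tfr1b and alad. For cpox it was the lowest vehicle library, nearly tied with BMS replicate 4, the lowest of the 6. The red cell carbonic anhydrase gene cahz and the red cell spectrin gene sptb, named here after their values were seen, were at 8.15, 8.65 and 0.992 CPM in vehicle and 1.29, 6.23 and 2.75 CPM in BMS and at 4.2, 3.04 and 0.675 CPM in vehicle and 0.681, 3.66 and 1.09 CPM in BMS. Vehicle replicate 4 was their lowest library, nearly tied with BMS replicate 2 for sptb. Others of the list, also named after their values were seen, differed. The genes hemgn, klf1, ank1a, rhag and add2 were lowest in BMS replicate 2, and within vehicle in replicate 4. For klf17 the levels were 2.2, 2.19 and 8.37 CPM in vehicle and 9.16, 1.24 and 2.06 CPM in BMS. Over the list, 6 of 30 had their lowest value in vehicle replicate 4 and 15 of 30 in BMS replicate 2, where 10.2% and 29.4% of all rows did.

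The summed levels of markers of other blood cells varied less between libraries than the red cell sums. Each sum is set mostly by its most abundant genes, so it does not show the spread of lower members. The summed level of 17 leukocyte markers, with 0 at 0 in every library and the antigen presentation genes cd74a and cd74b and the collagenase gene mmp13a leading, was 1877, 1556 and 1937 CPM in vehicle and 2187, 1557 and 2197 CPM in BMS. Vehicle replicate 4 was not the lowest in that sum or for cd74a and cd74b. It was the lowest for ptprc, mpx, marco and mmp9, named here after their values were seen, and the rest of the 15 tested were lowest in another library. The level of ptprc was 8.25, 6.24 and 4.80 CPM in vehicle and 5.98, 8.61 and 6.91 CPM in BMS. In vehicle replicate 4, mpx was at 1.03, marco at 35.2 and mmp9 at 105 CPM. The sum of 9 thrombocyte markers, led by thbs1b, f5 and itgb3b, was 404, 362 and 269 CPM in vehicle and 428, 398 and 228 CPM in BMS. Lower members varied in other ways, as for gp9, which was not tested, and fermt3b, both named here after their values were seen. In vehicle, gp9 was at 0.634, 1.01 and 0.119 CPM, lowest in replicate 4 as most red cell rows were. The vehicle values of fermt3b were 3.61, 4.77 and 5.24 CPM, highest in replicate 4. In BMS they were at 0.0757, 0.238 and 0.323 CPM and at 3.71, 5.94 and 3.92 CPM. Of these 2 lists, 0 genes were called in any of the 3 fits.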

How the data were processed

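RNA was measured in 6 libraries. Raw read counts, whole numbers for each row, were deposited by the authors beside a table of scaled values that was not used here. Per the submitters' processing notes the build was GRCz11, and edgeR 4.3.2, HTSeq 0.6.1, Bowtie2 2.33 and TopHat2 2.1.1 are listed without their roles. The sources used here give neither the annotation nor the strand setting.

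Rows were tested with edgeR 4.0.16 (quasi-likelihood F test, TMM, filterByExpr by group, robust fit, two-sided, Benjamini-Hochberg adjustment over 18541 rows, R 4.3.3). Alternatives were DESeq2 1.42.0, the replicate number as a block, each library left out in turn, other scalings, no filter and rows of 1 name summed. The fits were tested on simulated data. The deviations of same-number libraries from their group means correlated at 0.67 to 0.73, above the limit of 0.1, and those of other numbers at -0.60 to -0.21, so the numbers were taken as pairs. This pairing comes from the data. Where a name stood on several rows (541 names), the plain symbol means the row of highest mean count. The members and lists were chosen with earlier results of these data known. All members are named; of each supporting list reported, the 3 genes of highest mean CPM and any gene called are named. RefSeq's GRCz12tu table matched 34 of 38 members and was used for names and neighbours only. Levels were not compared between genes, since no transcript lengths were used.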

Additional observations from a re-analysis of the deposited data

How the results depend on the processing

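With the edgeR quasi-likelihood test, 0 rows of the whole table and 0 members were called under each planned scaling, filter, row sum and omission of 1 library, and with the replicate block. DESeq2 called 1 row of the whole table without the block and 72 with the replicate block, none of them members, and the block changed no other call. Total-count scaling moved the median log2 fold change of all rows from 0.011 to -0.10. The log2 fold change of flt4, 0.081 in the fit without the block, was -0.10 with total-count scaling and -0.0047 with DESeq2 and the replicate block. That of hbba2 was 0.045 with DESeq2 and the block, and that of hbaa2 was 0.21 by edgeR and 0.43 by DESeq2 with the block. The cause was not tested.

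Leaving out 1 library at a time changed the sign of 16 of the 36 member rows, and their log2 fold changes ranged as follows: flt4 -0.58 to 0.42, esama -0.27 to 0.18, clec14a -0.014 to 0.51, stab1 -0.41 to 0.012, stab2 -0.049 to 0.71, aplnra -0.54 to 0.020, fli1a -0.47 to 0.045, etv2 -0.23 to 0.39, sox7 -0.66 to 0.090, sox18 -0.46 to 0.18, prox1a -0.39 to 0.015, vegfaa -0.27 to 0.15, hbaa1 -1.35 to 0.083, hbaa2 -0.73 to 0.74, slc4a1a -1.18 to 0.014 and epb41b -1.51 to 0.093. Among the other 20, apln stayed between -0.75 and -0.43. All these fits were without the block, so leaving out 1 library also left its pair incomplete. Differences between replicate numbers then enter the estimate. Of the rows that changed sign, stab2, fli1a, prox1a and vegfaa had the same sign in all 3 pairs. With 3 pools per group, differences of the size seen within the vehicle group for red cell genes limit what can be detected for them. Counts of 0 to 8 reads in flt1, angpt1 and lyve1b allow no comparison.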
